A study of Mus musculus with 9 samples.

Results

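The 3 cyclin D genes and 7 genes that restrain the cell cycle were followed in the mouse uterus across 3 treatment groups. The 10 genes are Ccnd1, Ccnd2 and Ccnd3, the cyclin-dependent kinase (CDK) inhibitors Cdkn1a, Cdkn1b and Cdkn2c, the antiproliferative genes Btg1 and Btg2, the cyclin G gene Ccng1 and the retinoblastoma gene Rb1. They were picked by gene symbol, with earlier measurements of the same libraries in view, so their values are a description and carry no independent weight. All 10 were among the 18094 genes of the deposited count table, and all 10 were among the 15186 genes that passed a filter on low counts.

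RNA-seq was performed on uterine RNA of female mice, 3 mice per group, taken at 13 weeks of age. Control mice had the solvent by mouth as newborns and vehicle injections as adults. Tamoxifen mice were fed tamoxifen at 1 mg/kg on days 1 to 5 of life, which is a mouse model of adenomyosis, the growth of endometrium into the uterine muscle, and had vehicle injections as adults. Tamoxifen+primidone mice had the same neonatal tamoxifen and then intraperitoneal primidone, an anticonvulsant, at 2 mg/kg per day for 3 weeks from week 10. No group had primidone without tamoxifen, so an effect of primidone alone cannot be told apart from one that needs the neonatal treatment. The strain and the stage of the estrous cycle of each mouse are not given in the labels.

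D-type cyclins bind the kinases Cdk4 and Cdk6, and the pair phosphorylates the retinoblastoma protein, which then releases E2F transcription factors so that DNA replication can start. Cdkn1a (p21) and Cdkn1b (p27) bind cyclin-CDK complexes and block them, and Cdkn2c (p18) binds Cdk4 and Cdk6 directly. Btg1 and Btg2 slow proliferation in part through the CCR4-NOT complex, which shortens the poly(A) tails of mRNAs. Cdkn1a, Btg2 and Ccng1 are classical targets of the p53 protein. In the uterus, estrogen drives epithelial proliferation through cyclin D1 and its kinase, and progesterone restrains it.

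The 3 cyclin D genes are shown first by sequence, because they are paralogs that do the same job and yet differed in level and in pattern across the groups. The lines give the first 45 coding bases of the GENCODE M21 transcripts (GRCm38), 5′ to 3′, with the 5 codons of the L-x-C-x-E motif, by which D cyclins bind the retinoblastoma protein, in capitals.
Ccnd1: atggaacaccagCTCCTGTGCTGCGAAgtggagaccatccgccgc
Ccnd2: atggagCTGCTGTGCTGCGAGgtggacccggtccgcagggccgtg
Ccnd3: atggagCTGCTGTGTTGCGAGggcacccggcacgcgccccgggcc
The motif spans codons 5 to 9 of Ccnd1 and codons 3 to 7 of Ccnd2 and Ccnd3. Over the aligned coding bases, identity was 71.4% between Ccnd1 and Ccnd2, 68.8% between Ccnd2 and Ccnd3, and 66.6% between Ccnd1 and Ccnd3. Ccnd1 lies on chromosome 7, Ccnd2 on chromosome 6 and Ccnd3 on chromosome 17.

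The libraries held between 36393120 and 39958443 counts. Levels are given as CPM, counts scaled to each library's TMM-adjusted total, and differences as log2 fold changes ± standard error from edgeR's quasi-likelihood test, with Benjamini-Hochberg adjustment over 15186 genes and a threshold of 0.05. The 3 comparisons share groups, so their values are not independent. Uterine identity genes such as Hoxa10 and Hoxa11 were present throughout, with 8 of 8 above 0 in every library and a summed level of 802.2 to 1081 CPM. Tamoxifen+primidone replicate 1 stood apart from the other libraries of its group in genes of DNA replication and mitosis, as described with Ccnd1 below. Of the marker lists not taken up below, mesothelium had 1 and 3 of 5 genes that rose in tamoxifen and in tamoxifen+primidone against control, T and NK cells 1 and 2 of 11, B and plasma cells 1 and 1 of 6, erythroid cells 0 and 1 of 6 and uterine identity 0 and 1 of 8, and macrophages had 0 and 1 of 8 that fell. Stroma, endothelium, neutrophils and adipocytes had none that passed by edgeR in any comparison. Adipocyte markers (6 genes, none at 0) summed to 231.9 CPM in tamoxifen replicate 3 and 283 CPM in tamoxifen+primidone replicate 2, against 25.4 to 68.6 CPM in the other 7 libraries. Of these markers, 5 of 6 were higher without overlap in tamoxifen+primidone than in control, beside 14.1% of all genes. Their part in the values of the 10 genes was not tested. Bulk RNA cannot tell fewer cells of a type from less RNA per cell.

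The 10 genes fell into 3 kinds. Ccnd2 was lowest in the tamoxifen group and highest in the tamoxifen+primidone group, Cdkn1a and Btg2 showed the opposite order, and the other 7 genes did not pass a test of any difference among the groups. In that test, edgeR's F test on 3 groups, Ccnd2 (adjusted p = 0.0111), Cdkn1a (adjusted p = 0.0167) and Btg2 (adjusted p = 0.0187) passed, 3 of 10 against 3.84% of all genes tested. Without control replicate 1, Ccnd2 was the only member of the 10 that passed, so the F-test calls of Cdkn1a and Btg2 rest on that library.

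In single comparisons few members passed. In tamoxifen against control, 0 of 10 passed, against 1.53% of all genes. At an unadjusted p under 0.05 there were 5 of 10, against 17.8% of all genes, and DESeq2 called 4 (Btg1, Btg2, Cdkn1a and Cdkn2c), against 7.11% of the genes it tested. In tamoxifen+primidone against tamoxifen, 0 of 10 passed by edgeR, against 0.0132% of all genes, which is 2 genes. Here 4 members had an unadjusted p under 0.05, against 13.8% of all genes, and DESeq2 called 3 (Ccnd2, Cdkn1a and Btg2), against 3.78%. In tamoxifen+primidone against control, Ccnd2 passed, 1 of 10, against 5.35% of all genes. At an unadjusted p under 0.05 there were 5, against 23.2%, and DESeq2 called 2 (Ccnd2 and Btg2), against 12%. Since the 10 genes were chosen with these contrasts known, nothing is read from their share.

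**Figure D1:**
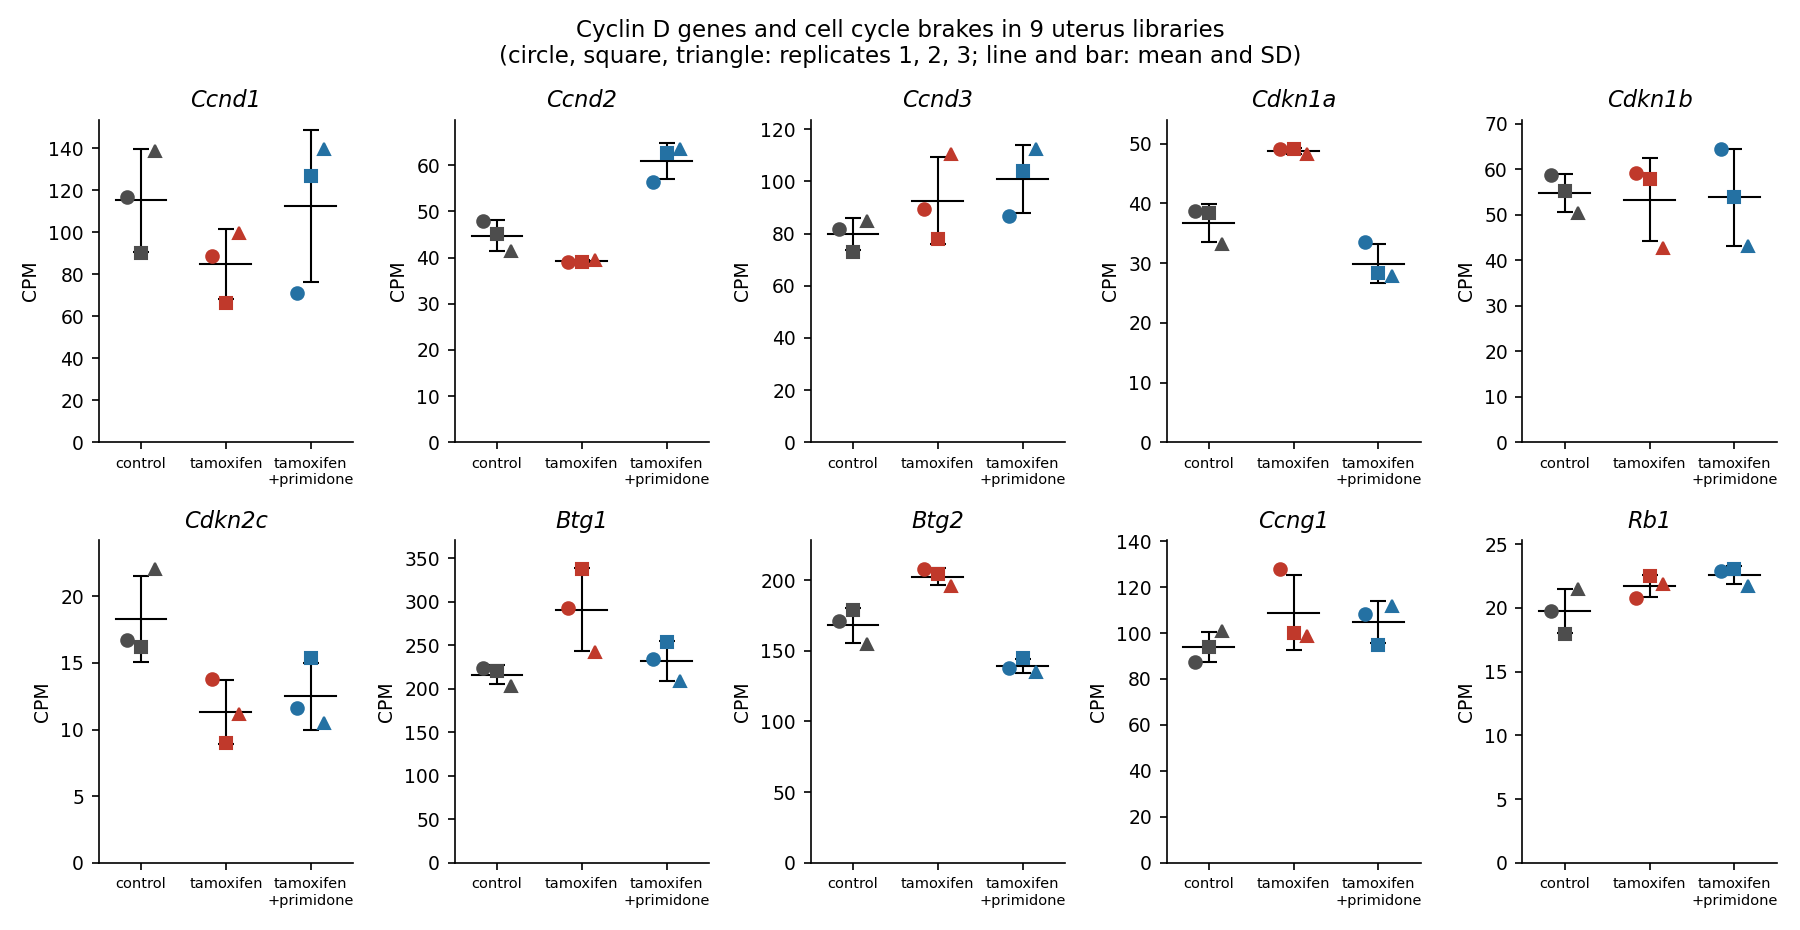
Level of each of the 10 genes in CPM (y axis, from 0) in the 9 libraries by group (x axis), with circles, squares and triangles for replicates 1, 2 and 3 and the group mean and SD as line and bar. Ccnd2 is at 39.0 to 39.6 CPM in the tamoxifen group and at 56.4 to 63.5 CPM in the tamoxifen+primidone group, and Cdkn1a and Btg2 have the tamoxifen group on top.

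The counts of members whose 3 CPM values in one group lay wholly above or below those of the other were as follows. In tamoxifen against control, Cdkn1a, Btg1 and Btg2 were wholly higher, 3 of 10 against 12.7% of all genes, and Ccnd2 and Cdkn2c wholly lower, 2 of 10 against 13.4%. Between tamoxifen+primidone and tamoxifen, Ccnd2 was wholly higher, 1 of 10 against 8.08%, and Cdkn1a and Btg2 wholly lower, 2 of 10 against 8.55%. Between tamoxifen+primidone and control, Ccnd2, Ccnd3 and Rb1 were wholly higher, 3 of 10 against 14.1%, and Btg2 and Cdkn2c wholly lower, 2 of 10 against 15.1%. The median log2 fold change of the 10 genes was 0.18, 0.035 and 0.039 in the 3 comparisons, in that order, beside medians over all genes of 0.00018, 0.015 and 0.012. The 10 genes thus did not share a direction: 6, 6 and 5 of them had positive values.

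Among the cyclins, Ccnd2 (cyclin D2) separated the 3 groups. It was measured at 47.9, 45.03 and 41.3 CPM in control replicates 1, 2 and 3. The tamoxifen libraries held 39.0, 39.1 and 39.6 CPM. In tamoxifen+primidone the values were 56.4, 62.6 and 63.5 CPM. All 3 tamoxifen values lay below all control values, and all 3 tamoxifen+primidone values lay above the other 6. The group means were 44.8 ± 3.30, 39.2 ± 0.292 and 60.8 ± 3.89 CPM (SD, n = 3).

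Ccnd2 rose 1.36-fold in tamoxifen+primidone against control, by 0.44 ± 0.08 log2 units (95% interval 0.26 to 0.63, edgeR adjusted p = 0.0202). Leaving out control replicate 1, 2 or 3 or tamoxifen+primidone replicate 2 ended that call, with adjusted p up to 0.0791. Against tamoxifen, the estimate was 1.55-fold, 0.63 ± 0.08 (95% interval 0.45 to 0.82), at an edgeR adjusted p of 0.0518, just outside the threshold. Tamoxifen against control gave −0.19 ± 0.08 (adjusted p = 0.272), which did not pass. Liver marker transcripts moved the same way as Ccnd2 in tamoxifen+primidone against control: 10 of 10 rose, with a summed level of 333.4 to 379.6 CPM in tamoxifen+primidone, 186.8 to 345.6 CPM in tamoxifen and 111.2 to 143.2 CPM in control, and none was at 0. Liver markers were also positive in 10 of 10, with 5 that rose, in tamoxifen against control, where the Ccnd2 difference was negative. Their part in the Ccnd2 result was not tested.

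Ccnd1 (cyclin D1), the estrogen-responsive member in uterine epithelium, varied more between mice of a group than Ccnd2. Control replicates 1, 2 and 3 had 117, 90.1 and 139 CPM. Tamoxifen libraries had 88.9, 66.5 and 99.5 CPM, and tamoxifen+primidone libraries 71.3, 127 and 139.8 CPM. The ranges overlapped in every comparison, and tamoxifen+primidone replicate 1 was below every control value while the other 2 libraries of its group were not. The differences were −0.44 ± 0.26 in tamoxifen against control (edgeR adjusted p = 0.427), 0.41 ± 0.26 in tamoxifen+primidone against tamoxifen (0.549) and −0.034 ± 0.26 in tamoxifen+primidone against control (0.955). The 95% interval of the first, −1.04 to 0.16 on the log2 scale, spans values well below 0 and values above it.

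Ccnd3 (cyclin D3) was at 81.9, 73.1 and 84.9 CPM in control, 89.2, 77.9 and 110.6 CPM in tamoxifen and 86.8, 103.9 and 112 CPM in tamoxifen+primidone. Its tamoxifen+primidone values were all above its control values, the lowest of them by a narrow margin, and the difference of 0.34 ± 0.14 did not pass (edgeR adjusted p = 0.172). The other comparisons gave 0.21 ± 0.14 and 0.13 ± 0.14, with overlapping ranges. Within groups, Ccnd3 and Ccnd1 deviated together: the correlation of their deviations from the group means was 0.890 over the 9 libraries, a description over few points that share their library preparation. For Ccnd1 and Ccnd2 it was 0.357. Values nearly as strong were not particular to the cyclin pair: it was −0.857 for Ccnd3 and Cdkn1b and −0.842 for Ccnd1 and Cdkn1a.

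To compare levels between the genes, the deposited FPKM values were used, which are per kilobase of gene length. The gene lengths implied by counts and FPKM were 3768 bases for Ccnd1, 8245 for Ccnd2 and 2509 for Ccnd3. On that scale Ccnd2 was the least abundant D cyclin in every library, at 6.37% to 11.3% of the summed cyclin D FPKM. Ccnd3 held 44.7% to 49.8% in control, 55.7% to 58.6% in tamoxifen and 57.3%, 50.1% and 50.01% in tamoxifen+primidone replicates 1, 2 and 3. Ccnd1 held 40.9% to 48.7%, 33.0% to 36.9%, and 31.4%, 40.7% and 41.4%. Ccnd1 and Ccnd3 thus exchanged share between control and tamoxifen without overlap, and Ccnd3 was ahead of Ccnd1 in every library except control replicate 3.

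**Figure D2:**
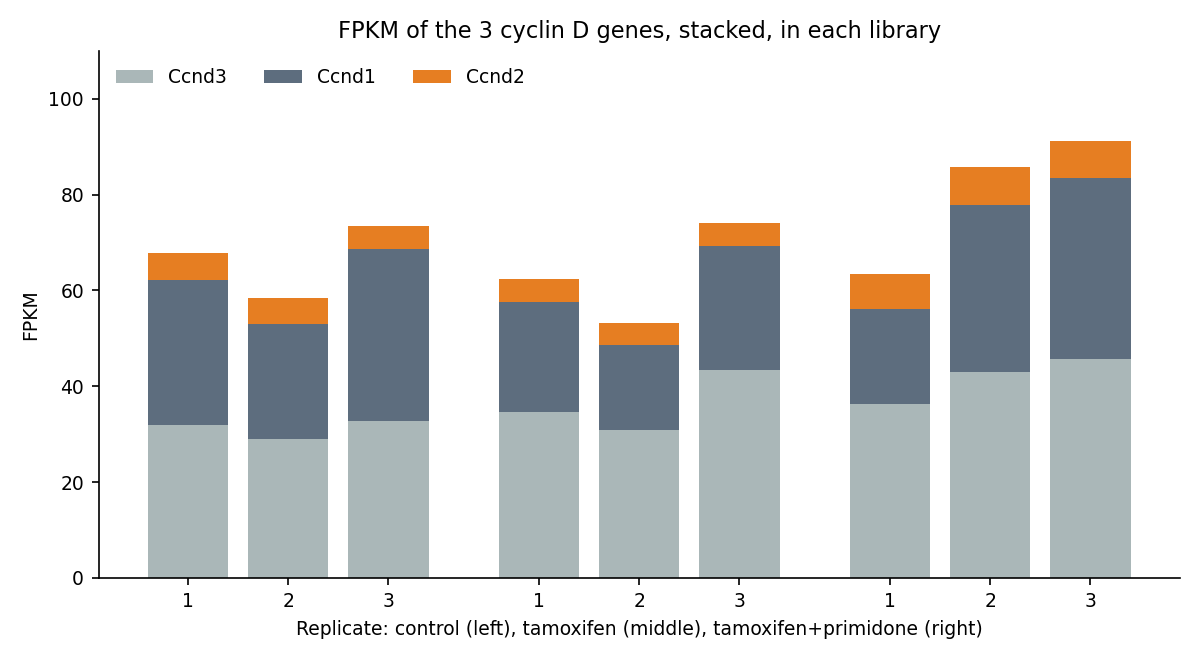
FPKM (y axis, from 0) of Ccnd3, Ccnd1 and Ccnd2, stacked, in each of the 9 libraries (x axis, replicates 1 to 3 of control, tamoxifen and tamoxifen+primidone from left to right). Ccnd2 is the thinnest layer throughout, and the summed level runs from 53.2 in tamoxifen replicate 2 to 91.2 in tamoxifen+primidone replicate 3.

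Of the CDK inhibitors, Cdkn1a (p21) was highest in the tamoxifen group. Control replicates 1, 2 and 3 had 38.8, 38.4 and 33.1 CPM. Tamoxifen libraries had 49.1, 49.1 and 48.2 CPM, and tamoxifen+primidone libraries 33.6, 28.3 and 27.8 CPM. The tamoxifen values lay above all others, while the control and tamoxifen+primidone ranges overlapped through control replicate 3 and tamoxifen+primidone replicate 1. Tamoxifen against control gave 0.41 ± 0.10, 1.33-fold (edgeR adjusted p = 0.0758). Tamoxifen+primidone against tamoxifen gave −0.71 ± 0.10, or 0.613 times the tamoxifen level (95% interval −0.93 to −0.48, adjusted p = 0.0518), and tamoxifen+primidone against control −0.30 ± 0.10 (adjusted p = 0.109). None of the 3 passed singly. Among markers of neighbouring organs, Ovgp1, the oviductal glycoprotein, followed the same group order. It was at 1.18, 36.5 and 13.4 CPM in control, 267, 61.9 and 124 CPM in tamoxifen and 0.982, 0.684 and 0.906 CPM in tamoxifen+primidone. Ovgp1 did not pass in any of the 3 comparisons (edgeR adjusted p = 0.181, 0.117 and 0.0995). Of the other oviduct and ovary markers, Amh and Zp3 were at or near 0 in every library, Cyp19a1 was not analysed here, and Foxl2, Star and Inha did not follow that order. The part of such cells in the Cdkn1a result was not tested.

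Cdkn1b (p27) showed no group pattern. It was at 50.3 to 58.7 CPM in control, 42.7 to 59.2 CPM in tamoxifen and 43.1 to 64.5 CPM in tamoxifen+primidone, and its replicate 3 was the lowest in each group. Its differences were −0.039, 0.014 and −0.025, each with a standard error of 0.16, and their 95% intervals ran from −0.40 to 0.32, from −0.34 to 0.37 and from −0.38 to 0.33. Cdkn2c (p18) was at 16.7, 16.2 and 22.0 CPM in control, 13.8, 8.96 and 11.2 CPM in tamoxifen and 11.6, 15.4 and 10.5 CPM in tamoxifen+primidone. Its control values lay above all 6 others. The differences from control were −0.69 ± 0.20 with tamoxifen (edgeR adjusted p = 0.115) and −0.55 ± 0.20 with tamoxifen+primidone (adjusted p = 0.136), and neither passed. On the FPKM scale Cdkn1a made up 34.6% to 38.5% of the summed FPKM of the 3 inhibitors in control, 43.9% to 51.0% in tamoxifen and 32.3% to 37.6% in tamoxifen+primidone.

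The ratio of Ccnd2 to Cdkn1a, a cyclin to a brake, separated the groups. In FPKM it was 0.305, 0.290 and 0.308 in control, 0.196, 0.197 and 0.203 in tamoxifen and 0.414, 0.545 and 0.565 in tamoxifen+primidone. No value of one group fell in the range of another. For tamoxifen this follows from the ranges of both genes given above, so it is not a further result. The ratio of Ccnd1 to Cdkn1a was less regular: 1.63, 1.27 and 2.27 in control, 0.979, 0.731 and 1.12 in tamoxifen, and 1.15, 2.42 and 2.72 in tamoxifen+primidone, where replicate 1 lay close to the tamoxifen values. Both ratios combine genes chosen with earlier results known and were not tested.

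**Figure D3:**
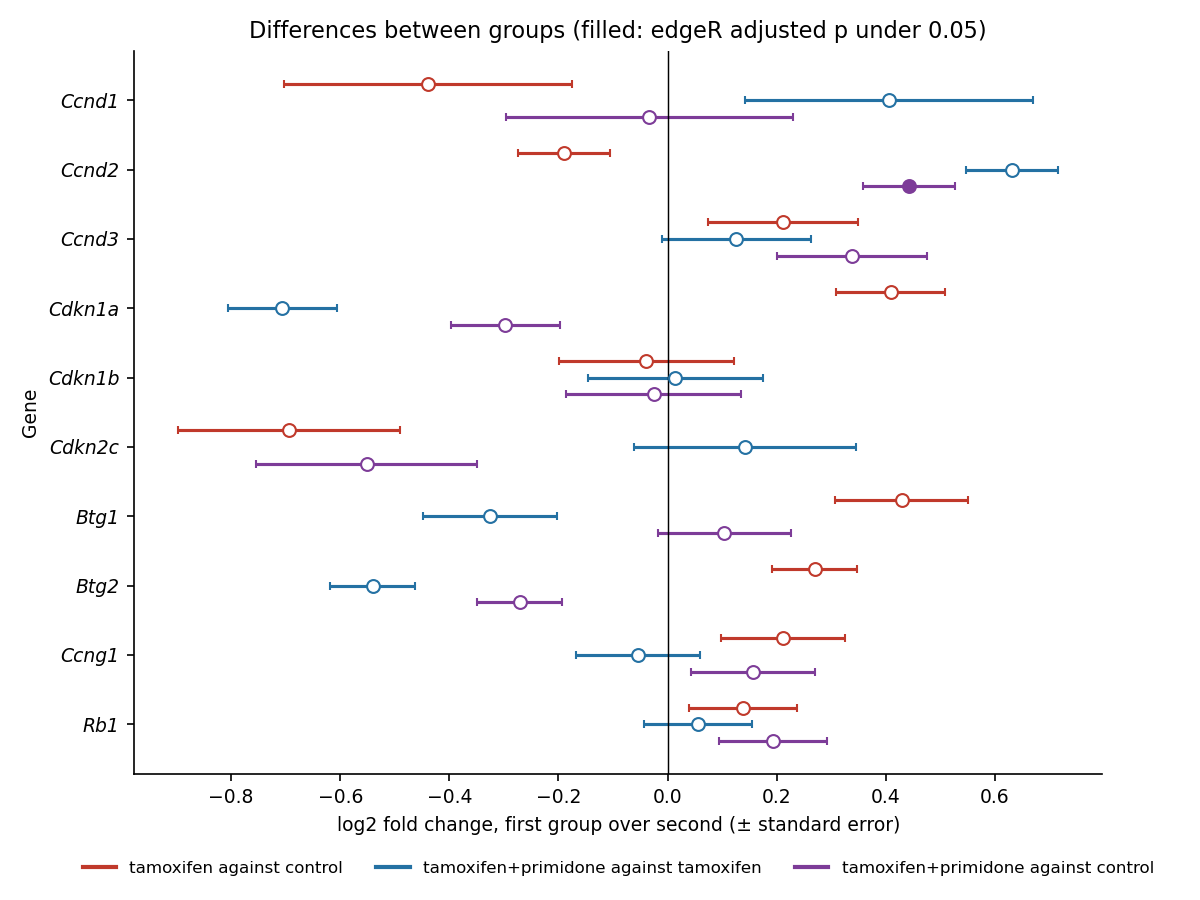
Log2 fold change with its standard error (x axis) for each of the 10 genes (y axis) in the 3 comparisons, by colour, with a filled point where edgeR's adjusted p was under 0.05. The filled point is Ccnd2 in tamoxifen+primidone against control at 0.44, and the blue points of Cdkn1a and Btg2 lie farthest to the left among values for tamoxifen+primidone against tamoxifen.

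Btg2, which slows entry into replication and is induced by p53 and by growth signals, had the same group order as Cdkn1a. Control replicates 1, 2 and 3 had 171, 178 and 154 CPM. Tamoxifen libraries had 208, 204 and 196 CPM, and tamoxifen+primidone libraries 137, 145 and 135 CPM. None of the 3 CPM ranges overlapped, with tamoxifen highest and tamoxifen+primidone lowest. In FPKM, tamoxifen+primidone (44.6 to 48.8) overlapped control (48.6 to 57.7) by a small margin. The differences were 0.27 ± 0.08 in tamoxifen against control (edgeR adjusted p = 0.113), −0.54 ± 0.08 in tamoxifen+primidone against tamoxifen, 0.687 times the tamoxifen level (95% interval −0.71 to −0.37, adjusted p = 0.0518), and −0.27 ± 0.08 in tamoxifen+primidone against control (adjusted p = 0.0705).

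Its paralog Btg1 was at 224, 220.2 and 203 CPM in control, 293, 337 and 242 CPM in tamoxifen and 234, 254 and 208 CPM in tamoxifen+primidone. The tamoxifen values were all above control and tamoxifen replicate 3 reached into the tamoxifen+primidone range. The differences were 0.43 ± 0.12 (edgeR adjusted p = 0.109), −0.33 ± 0.12 (0.281) and 0.10 ± 0.12 (0.658). In CPM, Btg2 was below control without overlap in tamoxifen+primidone, while the ranges of Btg1 overlapped.

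Ccng1, the cyclin G1 gene and a p53 target, was at 87.5, 93.9 and 100.7 CPM in control, 128, 100.1 and 98.9 CPM in tamoxifen and 108, 94.6 and 112 CPM in tamoxifen+primidone. The CPM ranges overlapped in every comparison, and the differences of 0.21 ± 0.11, −0.055 ± 0.11 and 0.16 ± 0.11 did not pass. Ccng1 thus did not show the group order of the p53 targets Cdkn1a and Btg2. Rb1, the substrate of the cyclin D kinases, varied little, at 18.0 to 21.4 CPM in control, 20.8 to 22.5 CPM in tamoxifen and 21.8 to 23.0 CPM in tamoxifen+primidone. Its largest difference was 0.19 ± 0.10, in tamoxifen+primidone against control (edgeR adjusted p = 0.272).

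Genes of DNA replication and mitosis, which act after the cyclin D step, were measured beside the 10 genes. The summed level of 24 such genes was 644.6, 675.9 and 779.0 CPM in control and 410.3, 391.8 and 429.3 CPM in tamoxifen. In tamoxifen+primidone it was 432.3, 906.3 and 864.5 CPM. By this sum replicate 1 was near the tamoxifen libraries and replicates 2 and 3 were above every control, which did not hold for each gene. In tamoxifen against control 24 of 24 had negative values and 6 fell, all of them mitotic genes: Kif20a, a mitotic kinesin (−2.06 ± 0.34), Cdc20 (−2.11 ± 0.37), Bub1b (−1.87 ± 0.34), Ube2c (−2.13 ± 0.39), Ccnb2, cyclin B2 (−2.24 ± 0.43), and Cenpf (−2.47 ± 0.47), with edgeR adjusted p from 0.0266 to 0.0443. For tamoxifen+primidone against tamoxifen, 24 of 24 were positive and 0 passed, with Mcm3, a subunit of the replication helicase, at 1.02 ± 0.23 (edgeR adjusted p = 0.130). The 6 mitotic genes named above stayed below every control in all tamoxifen+primidone libraries. Ccnb2 was at 10.2 and 8.9 CPM in replicates 2 and 3, against 15.7 to 18.5 CPM in control. Mcm5, another helicase subunit, was above control in these 2 libraries, at 59.9 and 61.2 CPM against 23.5 to 33.8 CPM. Of all 24 genes against control, tamoxifen+primidone gave 10 positive values, and 0 of 24 passed. Without overlap, 2 of the 24 were higher and 9 lower, beside 14.1% and 15.1% of all genes.

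Ccnd1 placed tamoxifen+primidone replicate 1 where these genes did, at 71.3 CPM and inside the tamoxifen range of 66.5 to 99.5 CPM. Ccnd2, Cdkn1a and Btg2 placed it with its own group. In that library Ccnd2 was 56.4 CPM, above every tamoxifen and control library, Cdkn1a was 33.6 CPM and Btg2 137 CPM, both below every tamoxifen library. Without that library the 3 genes passed in tamoxifen+primidone against tamoxifen, and 85 genes passed in all in place of 2.

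**Figure D4:**
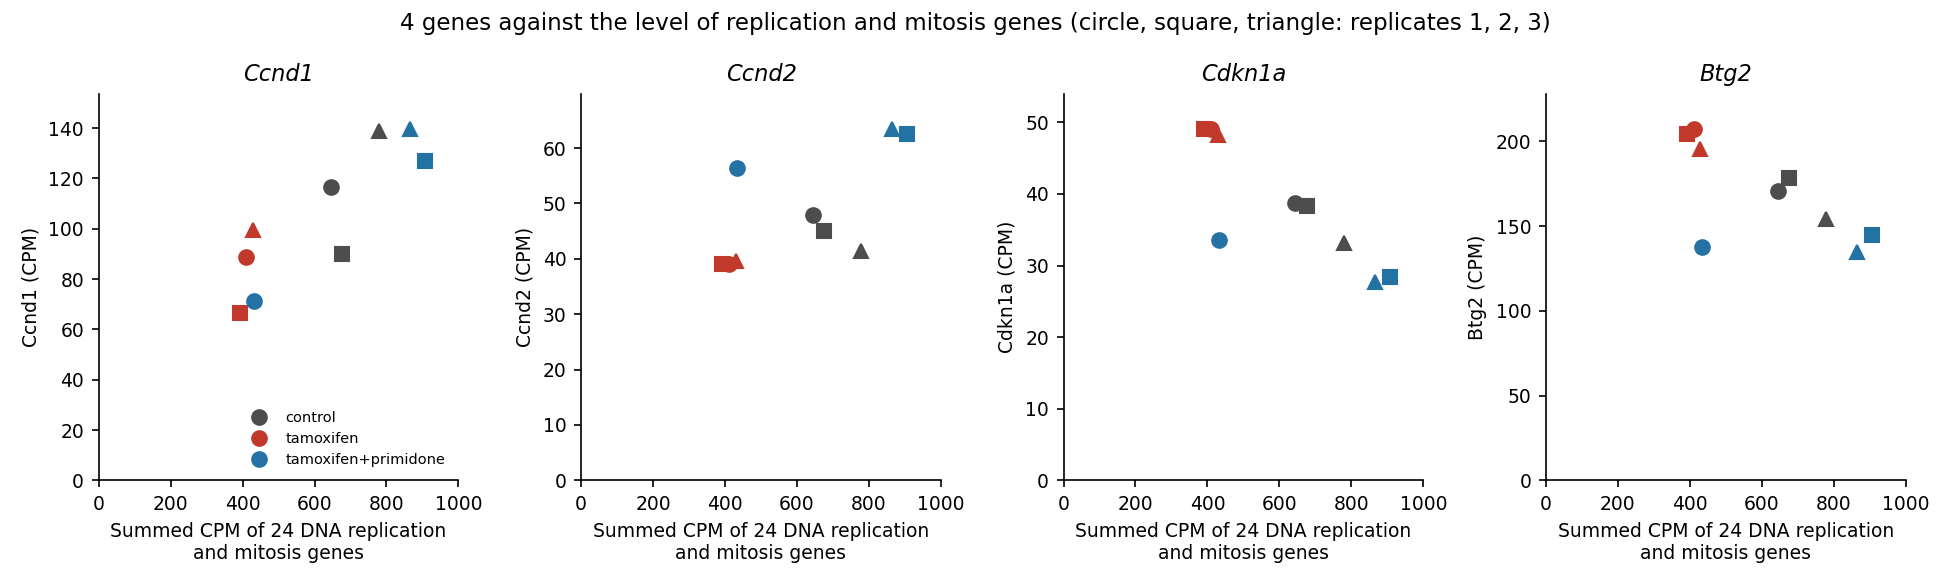
Level in CPM (y axis, from 0) of Ccnd1, Ccnd2, Cdkn1a and Btg2 against the summed CPM of 24 DNA replication and mitosis genes (x axis), 1 point per library. The blue circle, tamoxifen+primidone replicate 1, lies at 432.3 CPM on the x axis beside the red tamoxifen libraries, level with them in Ccnd1 and apart from them in Ccnd2, Cdkn1a and Btg2.

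Among the partners of the cyclins, Cdk4, the kinase that D cyclins activate, rose in tamoxifen+primidone against control by 0.36 ± 0.08 (edgeR adjusted p = 0.0409). It was at 161 to 166 CPM in control, 164 to 181 CPM in tamoxifen and 193, 203 and 232 CPM in tamoxifen+primidone, all 3 above every other library. It was the single one of 11 kinases and partners to pass there, and 0 of 11 passed in the other comparisons. Ccna2, cyclin A2, gave −1.74 ± 0.36 in tamoxifen against control (edgeR adjusted p = 0.0505) and 1.21 ± 0.35 in tamoxifen+primidone against tamoxifen (0.198), and Cdc25a, a phosphatase that activates CDKs, gave 0.49 ± 0.13 in the first (0.0854). Of 18 pocket proteins, E2F factors and their partners, 0 passed in any comparison. In tamoxifen against control 13 of the 18 were negative, with Foxm1, a mitotic transcription factor, at −1.30 ± 0.33 (adjusted p = 0.0848), and in tamoxifen+primidone against tamoxifen 16 were positive, with Mybl2 at 1.36 ± 0.39 (0.187).

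Of the 5 other CDK inhibitors, 2 had the clearest values. Cdkn2b (p15), an inhibitor of Cdk4 and Cdk6, was at 3.89, 3.11 and 4.86 CPM in control, 11.2, 10.98 and 5.24 CPM in tamoxifen and 4.11, 4.38 and 4.85 CPM in tamoxifen+primidone. The tamoxifen values lay above all others, tamoxifen replicate 3 by a small margin. The differences were 1.21 ± 0.29 against control (edgeR adjusted p = 0.0762) and, in tamoxifen+primidone against tamoxifen, −1.04 ± 0.29 (0.181), and neither passed. Cdkn3, a phosphatase of CDKs that is itself expressed in dividing cells, fell in tamoxifen+primidone against control by 1.76 on the log2 scale (SE 0.43, adjusted p = 0.0439), from 2.30, 3.32 and 3.53 CPM to 0.465, 1.39 and 0.830 CPM, and was at 0.607 to 0.950 CPM in tamoxifen (−1.99 ± 0.43, adjusted p = 0.0510). Cdkn1c, Cdkn2a and Cdkn2d did not pass.

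The p53 list of 24 genes did not share the pattern of Cdkn1a. In tamoxifen against control 0 of 24 passed and 13 were positive, with a median log2 fold change of 0.044. Of the same genes in tamoxifen+primidone against tamoxifen, 0 of 24 passed and 15 were negative, with a median of −0.045, and Phlda3 had the smallest p at 0.48 ± 0.15 (edgeR adjusted p = 0.211), in the direction opposite to Cdkn1a. Trp53, the p53 gene, rose in tamoxifen+primidone against control by 0.38 ± 0.08 (adjusted p = 0.0279), and Polk, a translesion polymerase, fell by 0.70 on the log2 scale (SE 0.13, adjusted p = 0.0188). Mdm2, the p53 ligase and a target of p53, was at 38.6 ± 1.51 CPM in control, 34.5 ± 2.36 CPM in tamoxifen and 32.3 ± 2.52 CPM in tamoxifen+primidone (SD, n = 3) and did not pass.

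Of 10 BTG, TOB and CCR4-NOT genes tested, 0 passed in any comparison. The smallest p-values belonged to Tob2 (−0.24 ± 0.10, edgeR adjusted p = 0.270) in tamoxifen against control, Cnot8, a deadenylase subunit (−0.24 ± 0.09, 0.277), in tamoxifen+primidone against tamoxifen, and Cnot6l (−0.27 ± 0.09, 0.110) in tamoxifen+primidone against control. Of 13 FoxO and quiescence genes, Hes1, a Notch target that represses differentiation genes, fell in tamoxifen+primidone against control by 0.48 on the log2 scale (SE 0.10, adjusted p = 0.0229) and gave −0.44 ± 0.10 in tamoxifen against control (0.0514). Of 12 genes for the turnover of D cyclins and p27, Usp2, a deubiquitinase of cyclin D1, fell in tamoxifen against control by 1.14 on the log2 scale (SE 0.21, adjusted p = 0.0317), from 13.7, 17.6 and 14.8 CPM to 8.50, 4.74 and 7.64 CPM, and stood at 9.20 to 10.2 CPM in tamoxifen+primidone. Of 16 mitogen and hormone inputs tested, Tcf7l2, a Wnt effector, fell in tamoxifen+primidone against control by 0.51 on the log2 scale (SE 0.13, adjusted p = 0.0468). Esr1, the estrogen receptor, gave −0.28 ± 0.09 in tamoxifen against control (0.130).

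Genes that respond to time of day or to handling were read as well, because Btg2 and Usp2 are known to follow such signals. Of 20 clock genes, 2 rose and 10 fell in tamoxifen against control, with Arntl, the core activator, at 2.05 ± 0.13 (edgeR adjusted p = 0.000248) and Dbp, an output gene, at −2.89 ± 0.33 (0.00962). Against control, 3 rose and 12 fell with tamoxifen+primidone, and in tamoxifen+primidone against tamoxifen 0 of 20 passed, where Bhlhe40 gave −0.58 ± 0.10 (0.0681). Arntl and Dbp passed against control in both tamoxifen groups, and among the 10 genes Cdkn2c had its control values above both. The control CPM values of Ccnd2 and Btg2 were also apart from both groups, but lay between them. Without overlap, 5 of the 20 clock genes were higher and 12 lower in tamoxifen against control, beside 12.7% and 13.4% of all genes. With tamoxifen+primidone against control the counts were 3 and 13, beside 14.1% and 15.1%. Per1 overlapped in the first of these, at 33.2 to 39.5 CPM in control and 20.2 to 39.5 CPM in tamoxifen. Of 15 immediate early genes, Atf3 rose in tamoxifen against control (0.73 ± 0.15, 0.0440). With tamoxifen+primidone against control, Atf3 (0.81 ± 0.15) and Klf2 (0.58 ± 0.11) rose, and Junb (−0.79 ± 0.12), Ier2 (−0.47 ± 0.11) and Zfp36 (−0.43 ± 0.10) fell, with edgeR adjusted p from 0.0103 to 0.0417. Junb, like Btg2, was lower in tamoxifen+primidone than in tamoxifen without overlap (−0.45 ± 0.12, edgeR adjusted p = 0.177). In that comparison 5 of 15 immediate early genes were lower without overlap, against 8.55% of all genes, and 0 were higher, against 8.08%. The part of clock phase or handling in the values of the 10 genes was not tested.

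Epithelial markers, like Cdkn1a and Btg2, had their lowest summed levels in tamoxifen+primidone. In tamoxifen+primidone against tamoxifen 9 of 9 had negative values, 7 of them without overlap, beside 8.55% of all genes, and 0 passed. Against control, 8 of 9 were negative with tamoxifen+primidone, 6 of them without overlap, beside 15.1% of all genes. There Elf3, an epithelial transcription factor (−0.59 ± 0.09, edgeR adjusted p = 0.00923), and Cldn4, a claudin (−0.31 ± 0.08, 0.0465), fell. Their summed level was 4731 to 5025 CPM in control, 4831 to 5244 CPM in tamoxifen and 3592 to 4183 CPM in tamoxifen+primidone, and none was at 0. Per 1000 CPM of these markers, Btg2 was 36.1, 35.5 and 30.9 in control, 39.6, 40.9 and 40.5 in tamoxifen and 38.3, 34.7 and 33.4 in tamoxifen+primidone. Cdkn1a was 8.19, 7.64 and 6.62 in control, 9.36, 9.85 and 9.98 in tamoxifen and 9.36, 6.78 and 6.87 in tamoxifen+primidone. On this scale tamoxifen was still above control for both genes without overlap, the tamoxifen+primidone and control ranges overlapped for both, and tamoxifen+primidone was below tamoxifen without overlap for Btg2 but not for Cdkn1a, where replicate 1 reached the tamoxifen range. Btg2 in tamoxifen+primidone, wholly below control in CPM, was not so on this scale. The part of epithelial content in the Cdkn1a and Btg2 results was not tested. Smooth muscle markers were negative in 10 of 10 in tamoxifen against control, where 0 passed, and in 10 of 10 in tamoxifen+primidone against control, where 2 fell. They summed to 8622 to 13622 CPM in control, 7043 to 8505 CPM in tamoxifen and 6737 to 8417 CPM in tamoxifen+primidone, with none at 0, and their part in the differences from control was not tested.

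The stretches upstream of Cdkn1a and Btg2 are shown because these 2 genes had the same group order. RefSeq promoters (GRCm38.p6, 250 bases before to 50 after a start site) were matched for 7 of the 10 genes, with 10 entries, and Ccnd1, Ccnd2 and Rb1 had no entry. The first line is the 250 bases before the upstream one of 2 Cdkn1a start sites, chr17:29090729-29090978 on the plus strand and 2790 bases from the other start. The second is the 250 bases before the Btg2 start, chr1:134079156-134079405 on the minus strand. Capitals mark a match to the p53 consensus in Cdkn1a and a cAMP response element in Btg2.
Cdkn1a: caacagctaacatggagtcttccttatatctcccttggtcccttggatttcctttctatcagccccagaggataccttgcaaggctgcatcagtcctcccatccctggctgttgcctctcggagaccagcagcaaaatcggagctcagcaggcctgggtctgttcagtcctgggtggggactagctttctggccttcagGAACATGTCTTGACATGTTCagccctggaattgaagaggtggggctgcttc
Btg2: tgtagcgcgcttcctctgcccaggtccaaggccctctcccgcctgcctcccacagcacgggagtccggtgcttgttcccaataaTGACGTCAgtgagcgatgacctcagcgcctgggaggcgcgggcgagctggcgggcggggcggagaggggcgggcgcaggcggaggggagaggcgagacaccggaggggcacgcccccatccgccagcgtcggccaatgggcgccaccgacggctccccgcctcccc
The p53 consensus, 2 adjacent decamers with at most 1 mismatch on either strand, was found in 29 of 32851 promoters (0.0883%), among them Cdkn1a, from 51 to 32 bases before the start, and Ccng1, from 195 to 176 bases before its start, where the match read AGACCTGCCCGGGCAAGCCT. The cAMP response element TGACGTCA was found in 588 promoters (1.79%), among them Btg2, from 166 to 159 bases before the start. The E2F motif TTTNNCGC, in 5.17% of promoters, was in none of the 10 entries. The E-box CACGTG, in 7.15%, was in 1 Cdkn2c entry, and the Sp1 motif GGGCGG was in 35.7%. The Btg2 entry and the other Cdkn1a entry held no p53 match. Only these windows were searched, with no spacer between the decamers, so sites elsewhere or of another spacing would be missed. The part of p53 in the group order of Cdkn1a and Btg2 was not tested. A match of letters is a description of the window.

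The genes most like the 3 leading members were found by Pearson's r of log2 CPM over the 9 libraries, among 11705 genes with a mean of at least 5 CPM. For Ccnd2 they were Elp6 (r = 0.946), Zfp746 (0.944) and Pold1 (0.942), the catalytic subunit of DNA polymerase delta. For Cdkn1a they were Btg2 (0.953), Ces1d, a carboxylesterase (0.933), and Cldn23, a claudin (0.928). For Btg2 they were Cldn3 (0.954), Cdkn1a (0.953) and Ces1d (0.945). Cldn3, a tight-junction protein and one of the epithelial markers, was at 171 to 200.4 CPM in control, 189 to 214 CPM in tamoxifen and 145 to 153 CPM in tamoxifen+primidone. These correlations include the differences between groups: after group means were removed, that of Cdkn1a and Btg2 was 0.475.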

How the data were processed

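RNA-seq libraries from uterine RNA of 9 mice, 3 per group, were analysed from 2 tables. Per the submitters' processing notes, HISAT2, HTSeq, DESeq2 and R 3.2.0 were used with build GRCm39. These notes give neither annotation nor strand setting. The deposited counts are raw whole numbers per gene symbol. The FPKM values deposited by the authors are those counts divided by gene length and library size.

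The 10 genes, the other gene lists and the tests were chosen with earlier results of these data known. From the counts, edgeR 4.0.16 (R 4.3.3; TMM scaling, filterByExpr, robust quasi-likelihood fit of all 9 libraries) gave 3 contrasts and an F test, two-sided, with Benjamini-Hochberg adjustment over 15186 of 18094 genes. An exact permutation test of 3 against 3 cannot go below p = 0.1, so none is given. Depth was 36393120 to 39958443 counts per library. The gene lengths used to read the FPKM values were recovered from counts and FPKM, and 99.97% of values gave a whole length within 0.01. From the other lists the text names, per comparison, the genes that passed, and otherwise up to 3 with the smallest p. Alternatives were other scalings, no filter, DESeq2 1.42.0, only the groups compared, a replicate block, limma 3.58.1 on log2(FPKM + 1), and leaving out each library. The edgeR step was tested on simulated data. Promoter and coding sequences are of GRCm38 and were used for letters only, since the counts are of another build.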

Additional observations from a re-analysis of the deposited data

How the results depend on the processing

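Of 480 alternatives for the 10 genes' fold changes, 437 kept direction and side of the threshold, 4 lost a call, 23 gained one and 16 turned direction. The 4 lost calls are those of Ccnd2 in tamoxifen+primidone against control, named above. Ccnd2 passed there in 12 of 16 alternatives, with log2 fold changes of 0.39 to 0.50 over all 16. In tamoxifen+primidone against tamoxifen, Ccnd2 passed in 6 (0.60 to 0.68), Cdkn1a in 5 (−0.80 to −0.61) and Btg2 in 4 (−0.58 to −0.46) of 16. The log2 ranges in brackets are over all 16, as is the adjusted p, between 2.7e-07 and 0.20 over the 3 genes. The cause was not tested.

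Counts of genes that passed, with the 3 comparisons in the order of the report, were 233, 2 and 812 in the edgeR fit and 1112, 578 and 1882 with DESeq2. With only the groups compared, the first was 546. The second was 9 with RLE factors, 21 without a low-count filter and 53 with the replicate block. Leaving out 1 library gave 22 to 439, 0 to 85 and 122 to 800. Members passing were 4, 3 and 2 with DESeq2. In tamoxifen against control 1 passed with only the groups compared and with the replicate block. For tamoxifen+primidone against tamoxifen, 2 passed with RLE factors, 1 with upper-quartile factors, 3 without the filter and 3 with the replicate block. Leaving out 1 library gave 0 to 1, 0 to 3 and 0 to 1 members, and 1 to 3 in the F test. The split of calls in tamoxifen+primidone against control was 325 higher and 487 lower, 431 and 400 with upper-quartile factors and 630 and 319 with limma on FPKM.

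The values that turned direction were small. When 1 library was left out, Cdkn1b ran from −0.12 to 0.10 in tamoxifen against control, from −0.14 to 0.15 in tamoxifen+primidone against tamoxifen and from −0.17 to 0.12 in tamoxifen+primidone against control, where it was also 0.0061 with upper-quartile factors and 0.035 with limma. Over the same libraries, Cdkn2c ran from −0.039 to 0.31 and Ccng1 from −0.12 to 0.075 in tamoxifen+primidone against tamoxifen, and Ccng1 was 0.023 with limma. Ccnd1 ran from −0.21 to 0.21 in tamoxifen+primidone against control, with 0.21 when tamoxifen+primidone replicate 1 was left out, and was 0.0076 with limma.

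Whether replicate numbers pair the mice could not be settled. Same-numbered libraries had correlations of deviations from −0.13 to 0.18, and 5 of 9 libraries were closest to their own number. With the replicate block, members passing were 1, 3 and 1 and genes 317, 53 and 984. The counts of members without overlap (5, 3 and 5) stayed the same under RLE factors, upper-quartile factors and FPKM, a check added after seeing the data, as were the ratios to epithelial markers. On FPKM the members behind the last count changed, in tamoxifen+primidone against control. There Btg2 overlapped control (44.6 to 48.8 against 48.6 to 57.7 FPKM). Ccng1 was wholly higher instead, at 28.15 to 32.6 against 24.5 to 28.03 FPKM. With 3 mice a group, small differences cannot be told from 0.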
